A study of Drosophila melanogaster with 87 samples.

Results

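Heat shock (HS) in control whole heads was followed in 10 of the 87 libraries of the series, namely the input libraries that accompany the m6A immunoprecipitations of control heads. Members were chosen by their labels as the 5 control inputs taken after HS and the 5 control inputs taken in basal conditions, with no measured value in the choice. The control flies carried DaGal4, a ubiquitous driver, over a control RNAi transgene against mCherry (BL35785), so that both groups hold an active RNAi transgene without a fly target. Flies were males, collected per the labels 1-2 days after eclosion from crosses kept at 25 °C, while the methods of the study give an older age for flies in HS experiments, so the age at HS is uncertain, and the HS group was held for 30 min at 38.5 °C in vials of 20 flies and collected directly afterwards. Each sample was the polyA+ RNA of 200 pooled heads, fragmented before 10% was set aside as input and made into a stranded library. The inputs come from 2 antibody experiments, New England Biolabs (NEB, 3 basal and 3 HS) and Synaptic Systems (SYS, 2 basal and 2 HS), and the experiment was a term in the test. Replicates are separate pools of heads, and p-values measure the spread between these pools.

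The heat shock response is carried by heat shock factor (Hsf), which trimerises on heating, binds arrays of short inverted repeats called heat shock elements and releases polymerases that wait near the start of chaperone genes. Its products are the Hsp70 family, the small heat shock proteins, Hsp90 (Hsp83 in flies) and J-domain cochaperones, which hold and refold damaged proteins, while transcription and splicing of many other genes are held back. Inducible chaperone genes of flies mostly have no introns, and the Hsp70 genes stand as near-identical copies in paired clusters on chromosome arm 3R.

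The 10 libraries held 12366260 to 17710227 counts. Of 17562 genes in the table, 10011 passed the filter on low counts and were tested with edgeR. Calls were made where the Benjamini-Hochberg adjusted p was below 0.05, and levels are CPM, counts scaled with TMM factors to a library of 1000000. Markers of eye, fat body, muscle, neuron and glia were all present. The summed level of 4 midgut proteases stayed at or below 0.13 CPM, while the whole list of 13 digestive enzymes summed to 36.5 to 214 CPM in basal and 79.7 to 253 CPM after HS, mostly from the amylases Amy-d and Amy-p. The summed level of 3 male reproductive genes stayed at or below 0.958 CPM and that of 3 ovary genes at or below 0.391 CPM. The basal SYS replicate 2 library stood apart from the other 4 basal libraries in its level of inducible chaperones, and values without it are given beside several of the results it touches.

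HS changed the level of 3582 genes in control heads, and 4536 had an unadjusted p under 0.05. The test called 1622 genes higher, 16.2% of those tested, and 1960 lower, 19.6%. Most changes were small. A rise of over 1 on the log2 scale was called for 175 genes, 1.75% of those tested, and a fall of over 1 for 97 genes, 0.969%. The called genes above 0 and up to 1 had a median log2 fold change of 0.32, and those below 0 down to -1 a median of -0.41. In bulk tissue a fall in the number of cells of a type and a fall in RNA per cell cannot be told apart.

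The split between rises and falls of small size rests on the scaling. With TMM factors 45.3% of the calls were rises, with the size factors of DESeq2 55.6% were (2102 genes higher and 1676 lower), and with library size as the only scaling 7.64% were (383 higher and 4631 lower). Library size moved the median of all genes by -0.25 on the log2 scale, from 0.02 to -0.23. All 383 rises under library size were among the 1622, and all 1960 falls were among the 4631. Counts of gene lists given below are to be read beside these numbers over all 10011 tested genes. Of the 175 rises of over 1, 137 were also past that size under library size, as were 97 of the 97 falls of over 1. Library composition itself moved with HS. The 57 genes of the 5 heat shock protein lists held 0.855% ± 0.0352 (SD, n = 5) of basal counts and 6.21% ± 0.239 (SD, n = 5) of HS counts. The difference was 5.39 percentage points, with an exact two-sided permutation p of 0.0167 when labels were exchanged within experiments, the smallest p that the 120 arrangements allow. Leaving out basal SYS replicate 2 gave 5.41 points. With library size counted without these genes, a scaling added after the data were seen, 574 genes were higher and 3586 lower (13.8% rises).

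**Figure D1:**
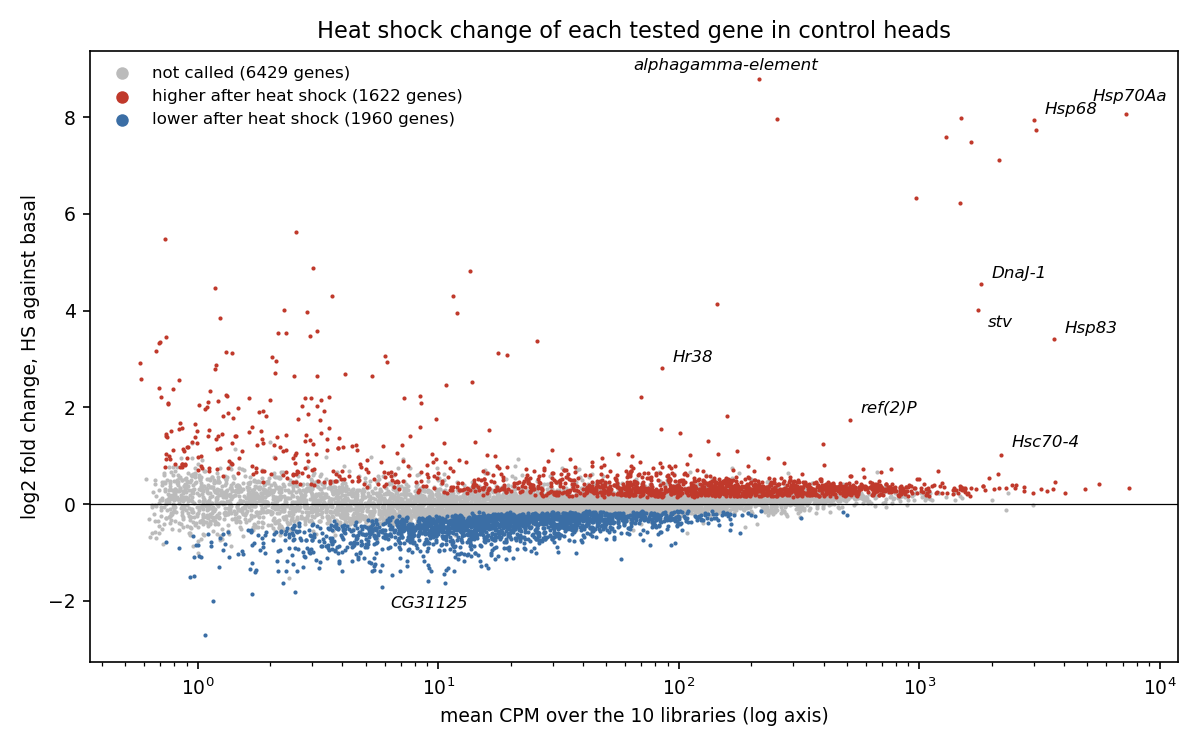
Log2 fold change of each of the 10011 tested genes (HS against basal, vertical axis) against its mean CPM over the 10 libraries (log axis). Red points are the 1622 genes called higher and blue points the 1960 called lower. Rises of over 6 on the log2 scale belong to chaperone genes and the alphagamma-element RNA, at high mean levels, while most other rises of over 2 lie at low levels.

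The 6 Hsp70 copies are the heat-inducible Hsp70 genes proper, and all 6 rose. Hsp70Aa was at 36.2, 37.1 and 37.3 CPM in the basal NEB libraries and at 22.3 and 164 CPM in the basal SYS libraries. After HS it was at 14341, 13291, 14121, 15777 and 14744 CPM. Every HS library lay far above every basal one. The log2 fold change of Hsp70Aa was 8.08 (SE 0.55, adjusted p = 4.09e-06). The other copies rose by 7.99 (Hsp70Bbb), 7.97 (Hsp70Ab), 7.74 (Hsp70Bc), 7.59 (Hsp70Ba) and 6.23 (Hsp70Bb) on the log2 scale. Together the copies went from 0.0171% ± 0.0120 (SD, n = 5) to 2.70% ± 0.0833 (SD, n = 5) of all counts. The basal share was 0.0384% in basal SYS replicate 2 and 0.0101% to 0.0123% in the other basal libraries. Between 88.9% and 99.2% of the 25-base windows of each copy also occur in another copy, so how reads were shared among copies is uncertain.

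The highest basal level of all 6 Hsp70 copies was in 1 library. In basal SYS replicate 2 Hsp70Bc was at 82.0 CPM, against 16.3 to 20.7 CPM in the other basal libraries, and Hsp68 was at 39.2 CPM, against 20.3 to 21.8 CPM. Hsp23 did not follow, and was lowest there at 18.9 CPM. Without this library the log2 fold change was 8.77 for Hsp70Aa, 8.87 for Hsp70Ab, 8.31 for Hsp70Bc, 8.44 for Hsp70Bbb, 8.11 for Hsp68 and 7.81 for Hsp26. All of these stayed called. What sets this pool of heads apart was not tested.

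Hsp68, an inducible Hsp70 relative at another locus of 3R, was at 20.3 to 39.2 CPM in basal heads and at 5495 to 6489 CPM after HS. Its log2 fold change was 7.94 (SE 0.19, adjusted p = 7.79e-10). The constitutive cognates (Hsc70) moved far less. Hsc70-4, the main cytosolic cognate, was at 1289 to 1578 CPM in basal and at 2715 to 3119 CPM after HS, which is a rise of 1.01 (SE 0.05, adjusted p = 3.9e-07). Hsc70Cb, an Hsp110-type exchange factor, rose by 0.95, Hsc70-3, the BiP of the endoplasmic reticulum, by 0.67, and Hsc70-5, the mitochondrial cognate, by 0.45. Hsc70-2 rose by 1.87 from a low level, and in the NEB libraries it stayed near 1 CPM after HS. Of the 7 genes of this list 6 rose, and Hsc70-1 did not pass the test at 0.21. Per kilobase of exon the order of levels changed with HS. In basal heads Hsc70-4 stood at 532 CPM per kilobase and Hsp70Aa at 24.9, and after HS Hsc70-4 stood at 1074 and Hsp70Aa at 6068. The basal Hsp70Aa mean includes basal SYS replicate 2 at 164 CPM, against 22.3 to 37.3 CPM in the other basal libraries.

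Of 10 small heat shock protein genes tested, 6 rose and 0 fell. Hsp26 went from 13.5 to 37.2 CPM in basal heads to 3042 to 3600 CPM after HS, a log2 fold change of 7.50 (SE 0.28, adjusted p = 2.29e-08). Hsp27 went from 20.1 to 51.8 CPM to 3785 to 4973 CPM, a change of 7.12 (SE 0.24). Hsp23 went from 18.9 to 27.7 CPM to 1791 to 2081 CPM, a change of 6.32 (SE 0.12). These 3 genes and Hsp67Bc (4.13, SE 0.11) and Hsp67Ba (1.54) share a cluster on arm 3L. The sixth riser was CG14207, at 0.40. The remaining members, l(2)efl at 0.22, CG13133 at 0.23, CG4461 at 0.10 and CG7409 at 0.03, did not pass the test. Hsp22 is listed at 0 counts in all 10 libraries. It shares exon positions with CG4456 on the same strand in the annotation, and its level could not be read from this table.

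Hsp83, the cytosolic Hsp90, started from a high basal level. It was at 510 to 828 CPM in basal heads and at 5938 to 7465 CPM after HS, a log2 fold change of 3.41 (SE 0.12, adjusted p = 1.38e-08). Its partners followed in part. Stip1, which bridges Hsp70 and Hsp90, rose by 0.83, the myosin chaperone unc-45 by 0.53, the endoplasmic Hsp90 Gp93 by 0.42 and the kinase adaptor Cdc37 by 0.20. STUB1, the ubiquitin ligase CHIP that acts on chaperone clients, fell by 0.16. Of 10 genes in this list 5 rose and 1 fell, and Trap1, p23, Fkbp59 and CG1416 were not called. With library size 4 rose and 3 fell.

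Among 20 J-domain proteins and starvin, 7 rose and 1 fell. DnaJ-1, the main inducible Hsp40, was at 148, 141, 153, 114 and 187 CPM in basal libraries and at 3352, 3283, 3316, 3634 and 3780 CPM after HS. Its log2 fold change was 4.55 (SE 0.13, adjusted p = 2.42e-09). Starvin (stv), the BAG3 homologue that couples Hsp70 to protein disposal, went from 165 to 266 CPM to 2565 to 4407 CPM, a change of 4.01 (SE 0.08). The SYS libraries held the higher stv levels in both states. CG7130 rose by 2.24, Droj2 by 0.41, CG5001 by 0.30, Tpr2 by 0.21 and Sec63 by 0.20. CG11035 fell by 0.40, and the other 12 members were not called. With library size 4 of the 20 rose and 8 fell, where 383 and 4631 of all 10011 tested genes did. Of 10 chaperonin subunits 7 rose and 0 fell, at most by 0.56 (CCT2), and under library size 1 rose and 3 fell. Their median was 0.10 in NEB alone and 0.36 in SYS alone. CCT3 and CCT5 were at 0.08 and 0.06 in NEB alone and at 0.63 and 0.65 in SYS alone. Neither was called in an experiment alone, or without basal SYS replicate 2.

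**Figure D2:**
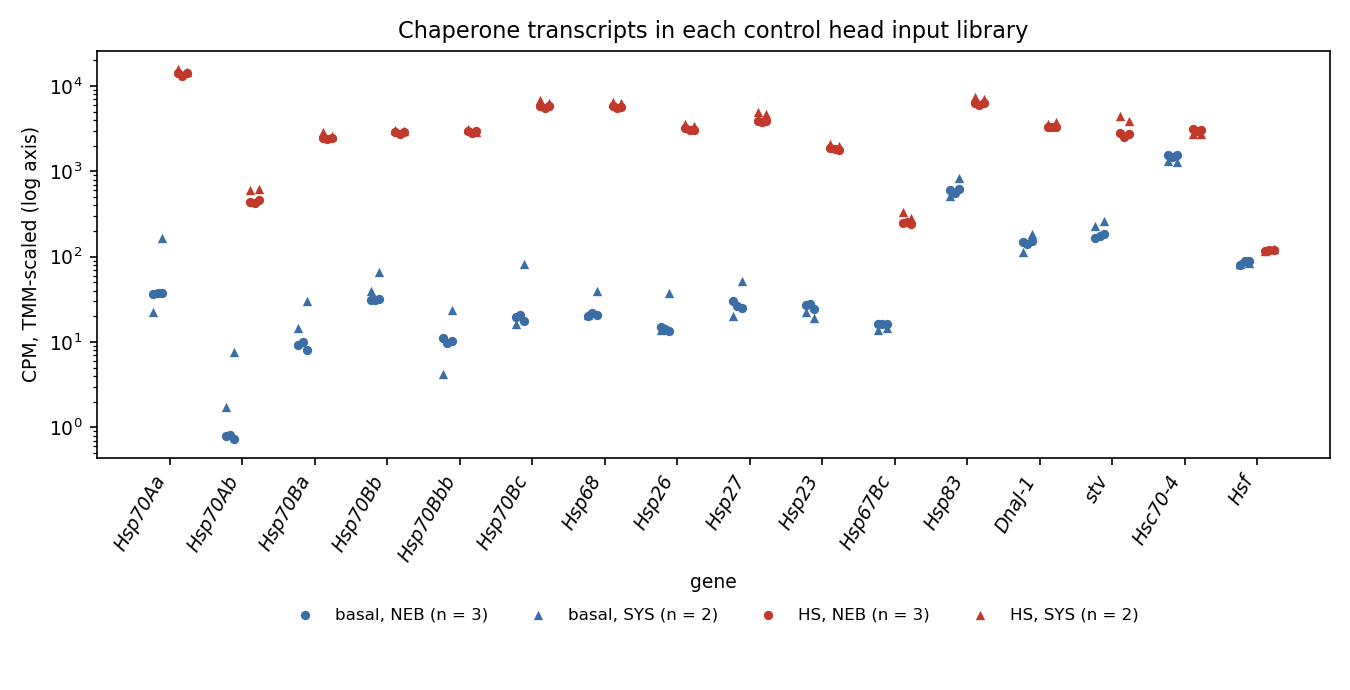
TMM-scaled CPM (log axis) of 16 heat shock genes in each of the 10 libraries, with circles for NEB and triangles for SYS, blue for basal and red for HS. Basal and HS libraries do not overlap for any gene shown. The highest basal Hsp70Aa point, at 164 CPM, is basal SYS replicate 2, and Hsf moved least, from 80.2 to 89.2 CPM in basal to 116 to 124 CPM after HS.

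A pair of long noncoding RNAs of the heat shock response rose with the chaperones. The alphagamma-element RNA (lncRNA:alphagamma-element:CR32865), transcribed from repeats beside the Hsp70 copies, was at 0.305, 0.176 and 0.112 CPM in the basal NEB libraries, at 0.835 and 4.03 CPM in the basal SYS libraries and at 333 to 568 CPM after HS. Its fitted log2 fold change of 8.80 (SE 0.44, adjusted p = 3.9e-07) depends on low basal counts, and it was 10.06 without basal SYS replicate 2. Hsromega (lncRNA:Hsromega), which gathers splicing proteins in nuclear speckles, went from 212 to 254 CPM to 465 to 704 CPM, a change of 1.25 (SE 0.07, adjusted p = 1.32e-06).

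Sequences upstream of 6 raised chaperone genes are shown to let the position of heat shock elements be read. They were chosen because their windows hold a match, and other genes that rose as much, Hsp27 among them, hold none. The element was searched as GAA, any 2 bases, TTC, any 2 bases and GAA, on either strand, in the 250 bases before the outermost annotated start of each gene, in RefSeq sequence of the fly genome, Release 6 (dm6). Capitals mark matches to the element with at most 1 of its 9 fixed letters differing, a looser match that was added after values were seen. Overlapping matches form a single run. Hsp70Aa (chr3R:11956545-11956794, minus strand) and Hsp70Bb (chr3R:12505543-12505792, plus strand) stand for the A and B copies. Hsp68 lies at chr3R:24057311-24057560 (minus), Hsp26 at chr3L:9377428-9377677 (minus), Hsp23 at chr3L:9381632-9381881 (plus) and DnaJ-1 at chr3L:5752190-5752439 (minus).
Hsp70Aa: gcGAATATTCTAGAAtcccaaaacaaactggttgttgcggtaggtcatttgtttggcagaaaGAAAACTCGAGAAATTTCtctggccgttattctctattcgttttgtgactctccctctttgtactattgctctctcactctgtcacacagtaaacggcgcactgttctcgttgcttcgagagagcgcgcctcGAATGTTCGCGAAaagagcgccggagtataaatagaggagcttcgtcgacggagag
Hsp70Bb: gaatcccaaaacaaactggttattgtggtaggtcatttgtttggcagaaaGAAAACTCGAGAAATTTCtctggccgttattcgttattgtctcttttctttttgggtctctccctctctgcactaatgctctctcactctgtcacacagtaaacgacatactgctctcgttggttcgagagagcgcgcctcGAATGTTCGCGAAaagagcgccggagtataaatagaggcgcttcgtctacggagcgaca
Hsp68: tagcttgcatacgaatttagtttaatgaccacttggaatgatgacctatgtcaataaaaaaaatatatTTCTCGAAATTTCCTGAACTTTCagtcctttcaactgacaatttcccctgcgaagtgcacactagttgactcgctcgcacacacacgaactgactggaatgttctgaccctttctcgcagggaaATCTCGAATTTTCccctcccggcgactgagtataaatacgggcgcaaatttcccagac
Hsp26: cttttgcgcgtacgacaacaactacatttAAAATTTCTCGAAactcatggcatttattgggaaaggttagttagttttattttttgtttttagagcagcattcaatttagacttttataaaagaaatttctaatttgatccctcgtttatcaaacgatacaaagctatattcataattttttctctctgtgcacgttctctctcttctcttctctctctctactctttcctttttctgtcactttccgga
Hsp23: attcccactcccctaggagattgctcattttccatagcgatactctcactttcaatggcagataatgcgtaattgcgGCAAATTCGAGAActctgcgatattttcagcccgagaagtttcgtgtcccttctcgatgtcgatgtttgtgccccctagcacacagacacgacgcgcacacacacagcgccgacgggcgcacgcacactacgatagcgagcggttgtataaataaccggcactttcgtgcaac
DnaJ-1: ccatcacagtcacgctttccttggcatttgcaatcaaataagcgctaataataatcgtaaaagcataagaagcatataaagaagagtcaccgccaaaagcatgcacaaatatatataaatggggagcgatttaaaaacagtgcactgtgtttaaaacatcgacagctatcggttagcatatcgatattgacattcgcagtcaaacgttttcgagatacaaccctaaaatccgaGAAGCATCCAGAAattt
Hsp70Aa held 2 exact matches, the nearer ending 44 bases before the start, and 2 looser ones that overlap. Hsp70Bb held 1 exact match, ending 47 bases before the start, and 2 looser ones. Hsp68 held 3 exact matches that overlap each other in a single array between 182 and 160 bases before the start, and 1 looser match ending 46 bases before it. Hsp26, Hsp23 and DnaJ-1 held 1 looser match each and no exact one.

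An exact element was rare among all tested genes. It stood upstream of 41 of 9960 genes with a window (0.412%). Among genes called higher the share was 0.938%, among those called lower 0.256%, and among rises of over 1 it was 7 of 174 (4.02%). Of the 22 genes that rose by over 4, 7 held an exact element (31.8%), and these were the 6 Hsp70 copies and Hsp68. Since the copies are near-identical they are not 6 separate cases. With 1 letter allowed to differ, the shares were 6.93% of all genes, 7.07% of those higher, 7.12% of those lower, 11.5% of rises over 1 and 50.0% of rises over 4. No match was found in the windows of Hsp27, stv, Hsp83, Hsp67Bc, Hsc70-4 and the alphagamma-element RNA, which says only that these letters are not in this stretch.

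Hsf itself was at 80.2 to 89.2 CPM in basal and at 116 to 124 CPM after HS, a rise of 0.50 (SE 0.05, adjusted p = 6.57e-05), with no overlap between groups. Of the 10 genes of the list for Hsf and early elongation 1 rose and 3 fell, and with library size 1 rose and 7 fell. The falls with TMM factors were NELF-B (-0.77) and TH1 (-0.29), subunits of the negative elongation factor, and Cdk9 (-0.23), the kinase that releases it. GAGA factor (Trl) was at -0.02 and not called.

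Of 13 early-response genes 7 rose with TMM factors and 0 fell, against 5 and 4 with library size. Hr38, the fly NR4A receptor and a marker of neuronal activity, was at 11.6 to 31.7 CPM in basal and at 87.0 to 190 CPM after HS, a log2 fold change of 2.81 (SE 0.27, adjusted p = 3.94e-05). CG14186 rose by 1.10, stripe (sr), the fly Egr factor, by 0.74, Atf3 by 0.61, kay (Fos) by 0.46, crc (ATF4) by 0.24 and Jra (Jun) by 0.22. CG14186 was at 1.38 in the NEB libraries alone and at 0.61 in the SYS libraries alone. The stress-kinase phosphatase puc and the cell death genes hid and rpr were not called, at 0.24, 0.15 and -0.31.

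Of 10 genes of ubiquitin and protein disposal 4 rose. The selective autophagy receptor ref(2)P, the fly p62, went from 225 to 247 CPM to 587 to 900 CPM, a rise of 1.73 (SE 0.10, adjusted p = 1.64e-06). The polyubiquitin gene Ubi-p63E rose by 0.72 and the ubiquitin fusion genes RpS27A and RpL40 by 0.35 and 0.31, and the fusion genes were not called under library size. Of 32 proteasome subunits tested 0 were called by edgeR or by DESeq2, and 0 had an unadjusted p under 0.05 in edgeR. Their median was 0.21, with 31 values above 0. This median was -0.02 in NEB alone, 0.47 in SYS alone and -0.05 under library size. Of 16 autophagy genes ref(2)P rose and Atg13 fell by 0.37, and the rest were not called, while with library size 1 rose and 11 fell. In the unfolded protein response 5 of 20 genes rose and 3 fell, where 16.2% of all tested genes rose and 19.6% fell. The rises were led by Hsc70-3 and Gp93, with Xbp1 at 0.29, and the falls were Sil1 (-0.45), Ire1 and Herp (both -0.19). Under library size 2 of these genes were higher and 12 lower, against 383 and 4631 of all 10011 tested genes.

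Of 26 antioxidant and detoxification genes 11 rose and 0 fell, against 2 and 2 under library size. GstD10 (0.93, adjusted p = 0.00104) and GstE8 (0.91, adjusted p = 0.0022), both glutathione transferases, kept their call under both scalings, while GstD1 (0.39), Cat (0.37), Trxr-1 (0.37) and cnc (0.25) rose with TMM factors. The stress-secreted Turandot peptides were variable, with TotA at 60.5 to 230.4 CPM in basal and at 99.8 to 336 CPM after HS, so that groups overlapped (0.68, adjusted p = 0.0437). TotA was not called under library size (0.43, edgeR adjusted p = 0.155). It also lost its call in most fits that left out 1 library. Of 17 antimicrobial peptide genes 0 were called by edgeR or DESeq2, and 1 had an unadjusted p under 0.05 in edgeR.

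Transcripts of single metabolic and signalling genes rose apart from their groups. The triglyceride lipase brummer (bmm) went from 66.4 to 98.9 CPM to 164 to 220 CPM, a rise of 1.30 (SE 0.09, adjusted p = 4.2e-06), while 13 of the 15 fat body genes tested were not called. InR, the insulin receptor, rose by 0.75 and foxo, its downstream transcription factor, by 0.43. The InR level differed between experiments, at 30.7 to 31.1 CPM in the basal NEB libraries and at 70.1 and 112 CPM in the basal SYS libraries. Within each experiment its HS values were higher. In the clock list cwo, a repressor of the circadian loop, rose by 0.59 and Pdp1 by 0.31, and per, tim and vri were not called at 0.52, 0.35 and 0.58. Of the 12 clock genes 2 rose with TMM factors, where 16.2% of all tested genes did. With library size 1 rose and 2 fell. Pdp1 (adjusted p = 0.0434) was then at 0.06 and not called, and it also lost its call in 8 of the 10 fits that left out 1 library.

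Among transcripts of m6A writers and readers, 5 of 10 fell with TMM factors and 7 with library size. Over the 10 libraries none was called higher by edgeR, where 1 had an unadjusted p under 0.05 and DESeq2 called 1. The writer subunit virilizer (vir) was at 25.1 to 27.1 CPM in basal and at 11.8 to 16.3 CPM after HS, a change of -0.95 (SE 0.09, adjusted p = 2.5e-05). Mettl14 changed by -0.66 and the catalytic subunit Mettl3 by -0.54, from 6.35 to 7.56 CPM to 3.96 to 5.76 CPM. The ligase subunit Hakai and the reader Ythdf both changed by -0.26. The nuclear reader Ythdc1 was at 0.10 (SE 0.09, adjusted p = 0.398), with -0.15 under library size. In NEB alone Ythdc1 was at 0.19 and called higher (edgeR adjusted p = 0.0389), and in SYS alone it was at -0.08 and not called. Splicing regulators were mixed, with Doa (0.47) among those higher and RnpS1 (-0.40) lower among 12, and with library size 0 were higher and 8 lower.

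The largest falls were of moderate size and in genes of low level. Where the mean count reached 100 in either state, CG31125 fell most, from 7.18 to 11.1 CPM to 2.15 to 3.22 CPM, a change of -1.72 (SE 0.14, adjusted p = 1.74e-05). CG30467 changed by -1.64, CG10958 by -1.60, CG17612 by -1.46 and CG17568 by -1.44. The next 10 in the order of size ran from -1.39 (CG12253) to -1.31 (pirk), and they include Saf6 (-1.37), a subunit of the SAGA coactivator, and l(3)72Dn (-1.38). That their values did not overlap was a condition of the ranking, and 95 of all 97 falls of over 1 did not overlap either. The same held for 1539 of 1863 called falls of up to 1, so a lack of overlap was common among falls of any size. Pirk, which restrains the Imd immune pathway, was at 7.09 to 10.1 CPM in basal NEB and at 16.5 and 20.9 CPM in basal SYS libraries, and at 2.71 to 3.29 CPM in NEB and at 9.31 and 9.39 CPM in SYS libraries after HS.

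Several abundant classes of transcript were slightly higher with TMM factors and mostly not with library size. Of 79 cytosolic ribosomal protein genes 77 were called higher, with a median of 0.33, and under library size edgeR called 0, with 1 at an unadjusted p under 0.05 and a median of 0.08. DESeq2 called 78 higher. Their share of counts was 3.79% ± 0.771 (SD, n = 5) in basal and 3.98% ± 0.662 (SD, n = 5) after HS (exact permutation p = 0.2). RpL32, often used as a reference transcript, was at 0.34 with TMM factors and at 0.09, not called, with library size. All 16 genes of the mitochondrial genome that were tested rose with TMM factors, and 3 did so with library size. The small ribosomal RNA of mitochondria, mt:srRNA, had the largest rise of these, at 55.2 to 99.7 CPM in basal and at 211 to 286 CPM after HS, a rise of 1.82 (SE 0.16, adjusted p = 2.22e-05). Of 56 nuclear respiratory chain genes 7 were higher with TMM factors, a smaller share than the 16.2% of all tested genes. With library size 15 of them were lower, against 4631 of all 10011 tested genes. Of 13 glycolytic genes 8 were higher with TMM factors and none with library size, where 1 was lower.

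Of 28 phototransduction genes 17 rose with TMM factors and 2 with library size. The carotenoid receptor ninaD was at 12.4 to 42.1 CPM in basal and at 91.0 to 134 CPM after HS, a rise of 2.21 (SE 0.26, adjusted p = 0.000137), while the channel trp rose by 0.40 and the arrestin Arr2 by 0.30. Of 21 muscle genes 13 rose, of 15 neuronal genes 8 and of 12 glial genes 6, against 2, 0 and 0 with library size. Over all tested genes 16.2% were higher with TMM factors, and 35.5% in the level class of the most abundant transcripts. The glial transcription factor repo fell by 0.53 (SE 0.08, adjusted p = 0.000427) under TMM factors, and its value was -0.78 under library size. Of 12 antennal genes edgeR called 0 and DESeq2 1, with 1 at an unadjusted p under 0.05 in edgeR, and of 4 midgut genes both called 0, with 1 at an unadjusted p under 0.05. The chorion gene Cp18 was the only ovary gene that passed the filter, at 0.252 to 0.836 CPM in basal and at 1.43 to 2.71 CPM after HS.

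**Figure D3:**
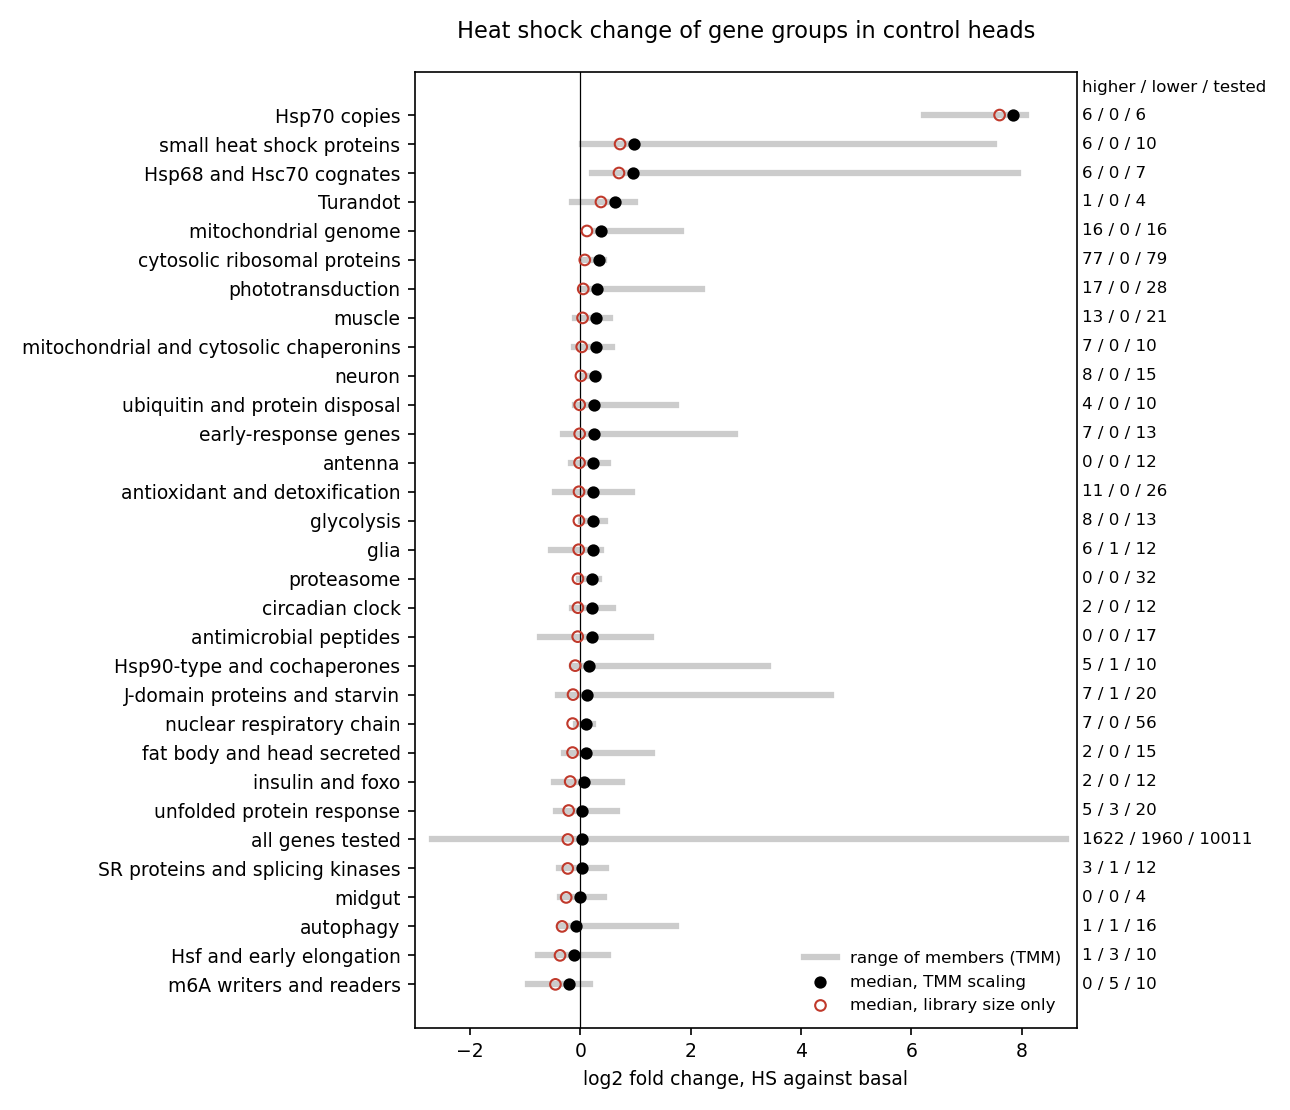
Median log2 fold change (HS against basal) of each gene list with TMM factors (black) and with library size only (open red), the range of its members (grey bars) and the number of members higher, lower and tested. The Hsp70 copies stand alone at a median of 7.85, small heat shock proteins follow at 0.97, and the median of all genes lies at 0.02 with TMM factors and at -0.23 with library size.

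The share of genes called in each direction differed between levels of transcript. Tested genes were split into 4 level classes of equal size by mean CPM over the 10 libraries. That mean includes the HS libraries, so a rise or fall itself enters the class of a gene, and the shares are given as a description. In class 4, 97.2 to 7411 CPM, 35.5% were called higher and 2.56% lower. In class 2, 9.71 to 32.4 CPM, 6.59% were called higher and 36.9% lower. Class 1, the lowest, had 9.91% higher and 20.5% lower, and class 3 had 12.8% higher and 18.4% lower. Median log2 fold changes ran from -0.14 in class 2 to 0.17 in class 4, and under library size from -0.39 to -0.08, so that class 4 stood above the others under both scalings.

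**Figure D4:**
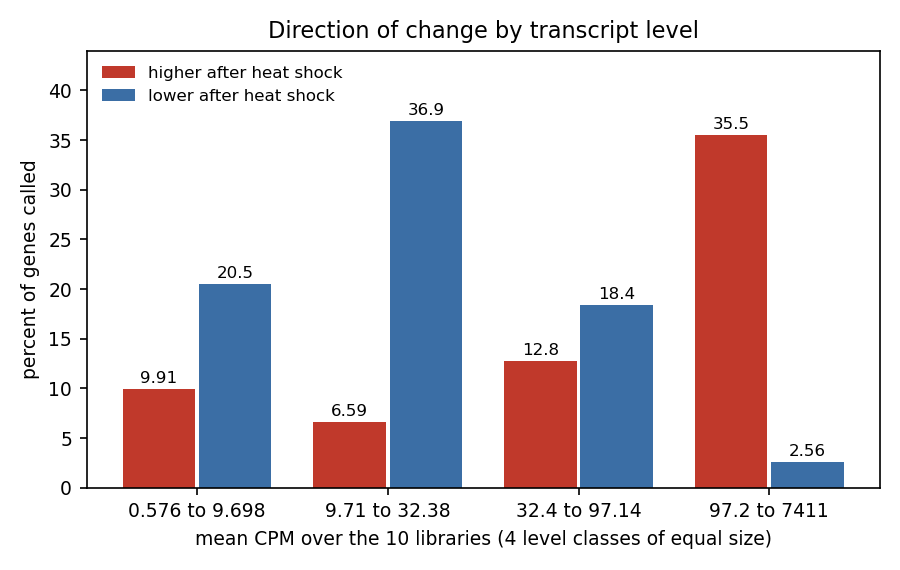
Percent of genes called higher (red) and lower (blue) after HS in each of 4 level classes of equal size, over the 10011 tested genes. Classes are by mean CPM of the 10 libraries, HS included. Class 4 has 35.5% higher and 2.56% lower, and class 2 has 6.59% higher and 36.9% lower.

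Genes with large rises often had a single exon. Of 9982 tested genes with annotation 12.1% had 1 exon, against 9.35% of those called higher and 15.5% of those called lower. Among rises the share increased with size, from 6.25% of those up to 1 on the log2 scale to 25.3% between 1 and 2, 34.5% between 2 and 4 and 77.3% over 4 (17 of 22). Noncoding genes made up 17.7% of rises over 1 and 4.06% of all tested genes. Most of these genes had low levels, and those near 0 in basal passed the count filter only through the HS libraries, so the filter itself raises the shares of low-level classes among rises and they are given as a description. The 175 rises of over 1 had a median mean level of 2.62 CPM against 32.3 CPM for all tested genes, 61 had a mean basal count under 10, and 53 reached a mean count of 100 after HS. Falls of over 1 had 1 exon in 31.2% of cases.

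Some raised genes lie directly behind a strongly raised gene on the same strand. For 9 of the 175 rises of over 1 (5.14%) the next gene upstream within 10 kilobases had risen by over 2, against 50 of 9968 tested genes (0.502%). The pseudogene CR46154, 121 bases behind Hsp70Bbb, rose by 4.30, from 0.794 to 1.35 CPM to 18.6 to 24.4 CPM. Fdx1, 273 bases behind Hsp67Bc, rose by 1.52, from 7.75 to 9.35 CPM to 17.9 to 40.0 CPM. CG5608, 155 bases behind Hsp70Ba, rose by 0.39. Nulp1 (-0.11), 325 bases behind fan, and CG9391 (0.15), 57 bases behind CG9389, were not called. Of the 9 cases 5 are Hsp genes that follow another raised gene of their cluster. These genes were picked out after their values were seen. The antisense RNA CR43481 overlaps Hsp67Ba on the other strand and rose by 4.83 (SE 0.13), and since strand use in counting is not stated their reads cannot be told apart.

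Both antibody experiments gave the same directions for most called genes. NEB alone called 2195 genes higher (21.9% of those tested) and 2394 lower (23.8%). SYS alone, with 2 libraries a state, called 30 genes higher (0.293%) and 0 lower with edgeR, where 1359 genes had an unadjusted p under 0.05 in either direction, and 29 of the 30 were also called in NEB. Among genes called in NEB, 84.6% of the rises and 92.7% of the falls had the same sign in SYS, and for changes over 1 these shares were 91.6% and 98.1%. For Hsp70Aa the log2 fold change was 8.53 in NEB and 7.36 in SYS, where it missed the threshold (adjusted p = 0.109), as did Hsp70Bbb and Hsp70Bc. Hsp68, Hsp26, Hsp27, Hsp23, DnaJ-1 and stv were called in each experiment alone. An interaction of HS and experiment was called for 0 genes in either direction (0%), with 690 at an unadjusted p under 0.05.

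Mettl3 RNAi heads (DaGal4 over the BL80448 transgene, 5 basal and 5 HS inputs) gave a set of libraries that the control contrast did not use. Of the 175 rises of over 1 in control heads 172 were called higher in Mettl3 RNAi heads (98.3%), where 18.9% of all tested genes were higher, and of the 97 falls 94 were lower (96.9%), where 22.6% of all were lower. Of the 80 genes that rose by over 2, 80 were higher there. No gene was called for a difference of the HS effect between the genotypes, neither higher (0%) nor lower (0%), with edgeR, 229 genes had an unadjusted p under 0.05, and DESeq2 called 0 higher and 1 lower, Mettl3 itself. Hsp70Aa had a fitted HS effect of 8.24 in control and 5.94 in Mettl3 RNAi heads. The difference of -2.30 (SE 0.98) had an unadjusted p of 0.0293 and an adjusted p of 1.0. Its HS level was 12210 to 16992 CPM in Mettl3 RNAi and 13127 to 16056 CPM in control heads, and the ranges overlapped. In basal libraries the summed Hsp70 level had a median of 110 CPM in Mettl3 RNAi heads with 1 library at 2484 CPM, against a median of 108 CPM and a highest value of 370.0 CPM in control heads. These levels are on the scale of the 20 head inputs.

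Control brains, 6 basal and 6 HS libraries of the same control genotype, shared most large changes. Of the 175 rises of over 1 in heads 143 were called higher in the brain (81.7%, with 22.0% of all genes higher) and 1 lower, mira, and of the 97 falls 89 were lower (91.8%, with 28.0% of all lower). The log2 fold change itself was called higher in heads than in brains for 362 genes (3.38%) and lower for 135 (1.26%). Heads and brains were prepared with different library kits, so tissue and preparation cannot be told apart. Under library size 1852 genes were higher in heads and 122 lower, and with brain replicates 1 to 3 only the counts were 109 and 138. With the replicate number as a block they were 418 and 222.

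The inducible Hsp70 genes rose less in heads than in brains. On a scale shared by both tissues Hsp70Aa was at 17.4 to 131 CPM in basal heads and at 10307 to 12400 CPM in HS heads, and at a median of 13.4 CPM in basal brains and at 38737 to 50876 CPM in HS brains. The difference of log2 fold changes, heads minus brains, was -3.65 for Hsp70Aa (SE 0.44, adjusted p = 8.59e-05), -3.81 for Hsp70Bc, -3.81 for Hsp70Bbb and -3.68 for Hsp70Ab, with -1.31 for Hsp70Ba and -1.16 for Hsp70Bb. Hsp68 (-1.98), Hsp26 (-2.05), Hsp83 (-1.47) and Hsp27 (-1.46) differed in the same direction. Hsp23 (0.33, adjusted p = 0.325), stv (0.15, adjusted p = 0.608), DnaJ-1 (-0.44, adjusted p = 0.104) and Hsf (0.26, adjusted p = 0.144) were not called. Without basal SYS replicate 2, the head library with the highest basal Hsp70, the brain comparison called 256 genes higher in heads and 108 lower. The differences were then smaller, at -2.91 for Hsp70Aa, -3.20 for Hsp70Bc, -3.29 for Hsp70Bbb, -2.81 for Hsp70Ab, -0.96 for Hsp70Bb, -1.77 for Hsp68 and -1.70 for Hsp26, and these and Hsp70Ba, Hsp27 and Hsp83 stayed called.

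Other genes rose more in heads. Hsp67Bc differed by 2.31 (SE 0.18, adjusted p = 3.28e-07), at 188 to 263 CPM in HS heads and at 49.8 to 74.8 CPM in HS brains. CG7130 differed by 1.36, ref(2)P by 0.90 and unc-45 by 0.88. In brains unc-45 fell by 0.35. Pirk fell in heads and was at 0.07 in brains, a difference of -1.42 (adjusted p = 0.0382). Among the 8 called genes with the largest differences CG3088 and CG7299 were near 0 in every brain library, at most 0.508 CPM, so that their differences of -4.53 and -4.05 rest on few brain counts. CG10710 (-2.79) rose in both tissues. The homeobox gene vnd (-2.46) was at 0.47 CPM or less in heads and went from 0.497 to 1.79 CPM to 4.30 to 6.01 CPM in brains. The summed level of 5 muscle markers was 1721 to 5803 CPM in heads and 58.3 to 996 CPM in brains, and that of 8 eye markers was 13869 to 20480 CPM in heads and 25458 to 75211 CPM in brains. The part of tissue makeup in these differences was not tested.

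**Figure D5:**
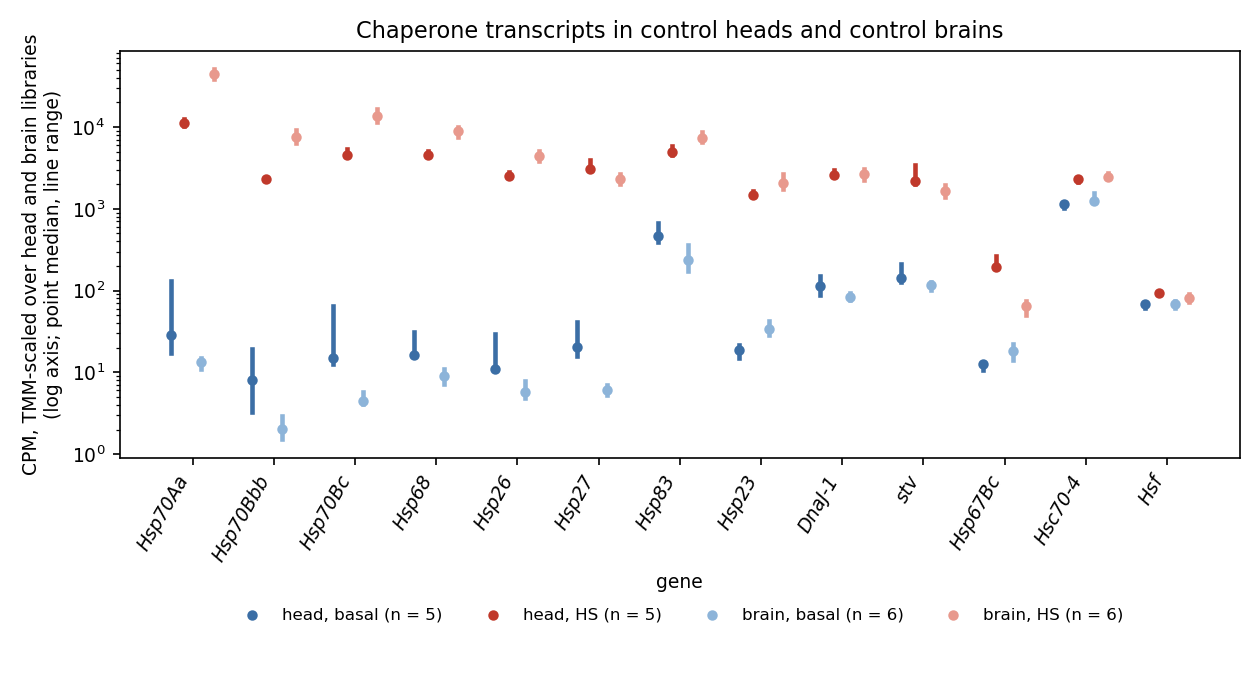
CPM scaled over 22 libraries (log axis) of 13 heat shock genes in control heads (dark) and control brains (light), blue for basal and red for HS, with the median as a point and the range over 5 head or 6 brain libraries as a line. Hsp70Aa reaches 10307 to 12400 CPM in HS heads and 38737 to 50876 CPM in HS brains, while DnaJ-1, stv, Hsc70-4 and Hsf lie close together in both tissues.

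Genes whose m6A enrichment depends on Mettl3 were also followed. The list holds 938 genes with a lower ratio of immunoprecipitate to input in Mettl3 RNAi than in control basal heads in the SYS libraries, and the HS change was read from the NEB inputs, which the list did not use. Of 933 list genes tested 381 were higher after HS (40.8%, with 21.9% of all genes) and 133 lower (14.3%, with 23.8% of all). With library size falls outnumbered rises, at 94 higher (10.1%, with 5.31% of all) and 360 lower (38.6%, with 52.1% of all). Their median log2 fold change was 0.12, against 0.00 for all genes, and with library size it was -0.12 against -0.24. The list has more abundant transcripts, with a median of 74.7 CPM against 32.4 CPM. Within each of the 4 level classes the list median stood above that of the other genes, at 0.03 against -0.06 in class 1, -0.02 against -0.20 in class 2, 0.09 against -0.04 in class 3 and 0.22 against 0.17 in class 4.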

How the data were processed

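Inputs of control heads were polyA+ RNA of 200 pooled heads, sequenced with a stranded kit. The authors trimmed reads with Trim Galore, aligned them with STAR 2.7.3a to dm6, handled alignments with SAMtools and deposited whole-number counts per gene of the FlyBase 2019_05 annotation from summarizeOverlaps in union mode. Strand use in that counting is not given in the sources used here, so overlapping and antisense genes and near-identical Hsp70 copies are uncertain. Groups came from the labels. Members and gene lists were chosen with earlier results of these data known.

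Counts were tested with edgeR 4.0.16 in R 4.3.3 (TMM factors, filterByExpr, quasi-likelihood F test, model of experiment and state, Benjamini-Hochberg adjustment), and SE was taken from the fold change and the F statistic. The differences from brains and from Mettl3 RNAi heads were interaction terms over 22 and 20 libraries. DESeq2 1.42.0, library size scaling, no filter, no experiment term, a replicate block, single experiments and leaving out each library were alternatives. Tables used pandas 2.3.3 and numpy 2.4.6, and plots matplotlib 3.10.9. Libraries held 12366260 to 17710227 counts. Named genes were, in each direction, the 15 called genes that moved most, provided their mean count reached 100 in a state and states did not overlap within either experiment, up to 4 called members of each list and members against its direction, up to 8 genes per interaction, and genes the study names for HS. Other list members, neighbours and low-level genes were named after their values were seen. Tests were checked on simulated counts with rises and falls in equal number. That check does not cover the shift in library composition seen here.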

Additional observations from a re-analysis of the deposited data

Results flagged for a closer look

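In 46 sets of basal or HS values, 8 had a single library far from the other 4, where chance gives about 1 in 20 sets, and all 8 were basal SYS replicate 2. The sets share genes of 1 response and are not independent. In that library the Hsp70 copies held 0.0384% of counts, with the nearest basal library at 0.0123%. Hsp70Aa was at 164 CPM (nearest 37.3), Hsp70Ab at 7.68 CPM (nearest 1.72), Hsp70Bc at 82.0 CPM (nearest 20.7) and Hsp70Bb at 66.8 CPM (nearest 40.2). Hsp68 was at 39.2 CPM (nearest 21.8), Hsp26 at 37.2 CPM (nearest 14.8) and the alphagamma-element RNA at 4.03 CPM (nearest 0.835).

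The HS effect differed between heads and brains by an interaction test, heads minus brains on the log2 scale, by -4.53 for CG3088, -4.05 for CG7299, -3.81 for Hsp70Bc, -3.81 for Hsp70Bbb, -3.68 for Hsp70Ab, -3.65 for Hsp70Aa, -2.79 for CG10710 and -2.46 for vnd. Tissue and library kit cannot be told apart in these values.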

How the results depend on the processing

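The number of genes higher after HS in control heads was 383 with library size, 574 with library size counted without the HSP genes (added after seeing the data), 428 without the experiment term and 30 in SYS alone, against 1622. The number lower was 4631, 3586, 886 and 0 in the same order, against 1960. Leaving out each library gave 1235 to 2031 genes higher and 1645 to 2244 lower. Against brains, where 362 genes were higher and 135 lower in heads, 1852 were higher with library size, 162 with no low count filter and 109 with brain replicates 1 to 3 only, and 280 were lower with DESeq2. Leaving out each library gave 251 to 363 higher and 103 to 144 lower. For the genotype difference DESeq2 called 1 gene lower, and leaving out each library called 0 to 1.

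Under library size ND-MLRQ (-0.0217), ATPsynC (-0.0361), ATPsynbeta (-0.0479), ND-75 (-0.0528), Eno (-0.0172) and Ythdc1 (-0.15) changed sign, as did the median of the Mettl3-dependent list (-0.12). Ythdc1 was also below 0 without the HSP genes in the library size (-0.0693) and in SYS alone (-0.0793). In NEB alone it was at 0.188 and called higher (edgeR adjusted p = 0.0389). The cause was not tested. Of 120 named genes, 35 lost their call without a change of sign with library size, 26 without the HSP genes in the library size, 53 without the experiment term, 104 in SYS alone, 11 with no filter, 7 in NEB alone, 2 with DESeq2 and 2 to 10 when 1 library was left out.

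With the replicate number as a block, 1639 genes were higher and 1913 lower in heads, 3 named genes (CCT3, CCT5 and GstD2) lost their call, and against brains 418 were higher and 222 lower. Same-numbered basal and HS libraries correlated at 0.103, 0.146 and 0.148 in NEB and at 0.0741 in SYS. Not every pair was over 0.1, so the numbers were not taken to pair the samples, though the NEB values alone leave pairing there possible. In NEB every library correlated best with its own number. SYS has 2 libraries a state, and low basal counts limit the fold changes of genes near 0.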

Other observations

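A set of genes near the detection limit in basal heads rose with HS in heads, in brains and in Mettl3 RNAi heads. They were picked out after their values were seen, and none is a chaperone gene. Genes this near 0 in basal passed the count filter only through the HS libraries, so they could appear only as rises. Of all 80 rises of over 2, 73 were called higher in brains and 0 lower, and CG3819, CG11327 and Ir21a were among those not called. CG5157 was at 0 to 0.252 CPM in basal heads and at 3.70 to 6.08 CPM after HS. Its fitted log2 fold change of 5.64 depends on low basal counts. The VAP-related gene fan went from 0.111 to 0.315 CPM to 4.53 to 7.37 CPM, a change of 4.89, with 4.75 in brains. AOX2, an aldehyde oxidase gene, went from 0 to 0.556 CPM to 5.63 to 8.89 CPM, a change of 4.31, with 2.88 in brains. Porin2, a voltage-dependent anion channel gene, rose by 4.01 in heads and 4.09 in brains.

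Other genes of this kind had more counts. CG5290 went from 3.53 to 5.44 CPM to 40.5 to 53.4 CPM in heads, a rise of 3.37 (SE 0.11), and CG6785 from 3.02 to 4.68 CPM to 25.6 to 46.3 CPM, a rise of 3.12 (SE 0.18). CG34232 went from 3.69 to 5.04 CPM to 29.6 to 39.3 CPM, a rise of 3.09 in heads and of 1.34 in brains. Theg rose by 3.95, with HS values spread from 10.7 to 50.2 CPM. The basal and HS ranges of each gene named here did not overlap. Within experiments this held for 80 of the 80 rises of over 2, and for 1026 of 1447 called rises of up to 1. Of the 80, 38 had a mean basal count under 10, so the count is given as a description only.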
